A study of Mus musculus with 9 samples.

Results

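The genes described are 10 chaperones and signalling genes of the endoplasmic reticulum, chosen by symbol and not by their values. A row was found for 9 of them (Hspa5, Hsp90b1, Pdia4, Pdia6, Calr, Atf6, Herpud1, Dnajb9 and Hyou1) among the 14194 gene entries, and Xbp1 is not analysed here. Ribosome-bound RNA came from the retinae of Tam-induced Aldh1l1-cre/ERT2+; NuTRAP+ mice, in which a Cre driven by the astroglial gene Aldh1l1 switches on GFP-tagged ribosomes, so that pulling down GFP enriches RNA of Müller glia, the radial glia of the retina. All libraries were of this positive fraction, each from 2 pooled retinae. In the 5 ONC libraries (animal pools 913/986, 914/92, 938/88, 976/978 and 981/982) the optic nerve had been clamped for 3 s about 1 mm behind the eye, and tissue was taken 72 h later. The 4 Control libraries came from the fellow eyes of pools 914/92, 938/88, 976/978 and 981/982, which were untreated or sham-operated. The labels do not say which of these a control eye was and give no age, and both eyes of an animal shared the tamoxifen induction, the anaesthesia and the analgesia. Astrocytes also express Aldh1l1, so the driver is not particular to Müller glia.

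Values are on the log2 scale and relative, for each gene, to a baseline of the control libraries, so that 0 stands for a level typical of the controls and 1 for a doubling of it. They hold no absolute level and no library depth. Levels of different genes therefore cannot be compared, and the spread between libraries is the measure of error. All 16 Müller glia markers looked for had a row, but so had all 14 photoreceptor and all 14 ganglion cell markers, and the values cannot show how far the pull-down enriched the first. In such bulk RNA, fewer cells of a type and less RNA per cell cannot be told apart.

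Proteins that are secreted or placed in membranes fold in the endoplasmic reticulum with the help of chaperones such as BiP, the product of Hspa5. When unfolded protein builds up, the sensors IRE1, PERK and ATF6 start the unfolded protein response. ATF6 is cut and IRE1 splices Xbp1 mRNA to make transcription factors that raise chaperone and degradation genes, whereas PERK slows translation and favours ATF4 and its targets. After crush of the optic nerve this response has been studied mostly in retinal ganglion cells, whose axons are cut, and Müller glia are the cells around them.

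Promoter elements known to bind ATF6 and XBP1 are shown because 5 of the 9 measured genes hold one. RefSeq promoter windows (GRCm38.p6, from 250 bases before to 50 after the transcript start, 300 in all) matched 7 of the 9 measured genes, and Atf6 and Hyou1 had no match. Both strands were searched for exact matches to 3 motifs, so copies with a changed letter were not counted. The ER stress response element (ERSE, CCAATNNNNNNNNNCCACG) was found in the windows of Hspa5, Hsp90b1, Pdia6 and Calr, and in 0.119% of all 32851 windows. ERSE-II (ATTGGNCCACG) was found in that of Herpud1, and in 0.0365% of all windows. The UPRE core TGACGTGG was in none of the 7, against 0.676% of all windows. No match overlapped another, and Pdia4 and Dnajb9 held none of the 3. Written 5′ to 3′ in the orientation of the motif, with the fixed letters in capitals, the elements read as follows.

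Hspa5, chr2:34772025-34772043, plus strand: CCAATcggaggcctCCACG

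Hsp90b1, chr10:86705638-86705656, minus strand: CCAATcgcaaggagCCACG

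Hsp90b1, chr10:86705533-86705551, plus strand: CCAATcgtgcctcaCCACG

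Pdia6, chr12:17266491-17266509, plus strand: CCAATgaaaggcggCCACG

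Calr, chr8:84847075-84847093, plus strand: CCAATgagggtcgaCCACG

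Herpud1, chr8:94386377-94386387, plus strand: ATTGGgCCACG

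The elements of Hspa5 and Herpud1 lay from -65 to -47 and from -52 to -42, counted from the RefSeq transcript start of the window, which for Herpud1 (94386429) lies upstream of the deposited gene start (94386500). Their 250 upstream bases are shown with the element in capitals, since these are the chaperone best known as a readout of the response and the member with the largest difference of the 9.

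Hspa5, chr2:34771840-34772089, plus strand: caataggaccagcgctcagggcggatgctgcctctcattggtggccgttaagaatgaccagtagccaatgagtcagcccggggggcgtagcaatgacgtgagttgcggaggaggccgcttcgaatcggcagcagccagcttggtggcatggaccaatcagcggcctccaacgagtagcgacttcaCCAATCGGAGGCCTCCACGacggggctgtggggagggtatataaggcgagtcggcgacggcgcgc

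Herpud1, chr8:94386179-94386428, plus strand: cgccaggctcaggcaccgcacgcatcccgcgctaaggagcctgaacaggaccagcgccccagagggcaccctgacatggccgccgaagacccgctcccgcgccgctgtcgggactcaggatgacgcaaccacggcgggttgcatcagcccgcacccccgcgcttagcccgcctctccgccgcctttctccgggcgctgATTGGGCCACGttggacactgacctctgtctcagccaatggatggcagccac

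**Figure D1:**
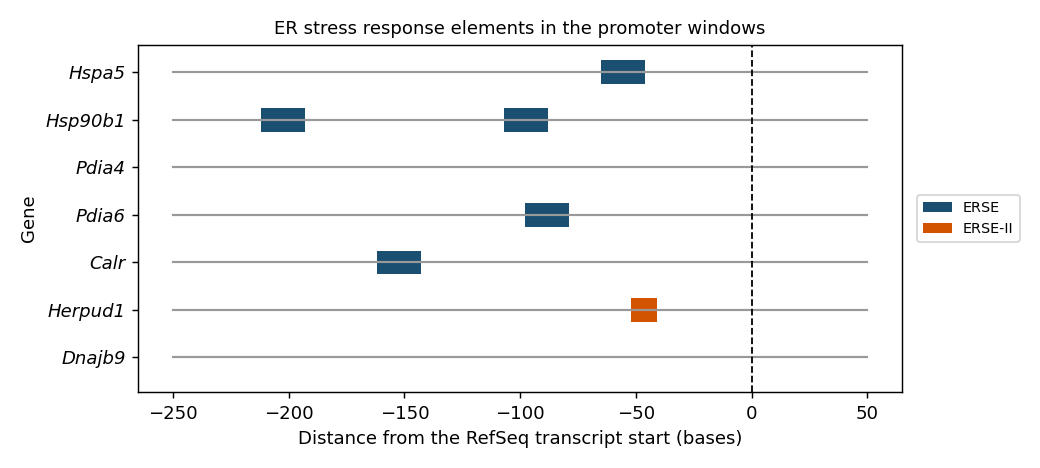
Positions of the ERSE (blue) and ERSE-II (orange) in the promoter windows of the 7 measured genes with a window, as distance in bases from the RefSeq transcript start (dashed line). Counting exact matches only, Hsp90b1 holds 2 elements, Hspa5, Pdia6, Calr and Herpud1 hold 1 each, and Pdia4 and Dnajb9 hold none.

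None of the 9 measured chaperone and sensor genes passed the test between crushed and control eyes at 72 h. Their differences on the log2 scale, ONC minus Control, ran from -0.23 for Atf6 to 0.32 for Herpud1, with a median of 0.15, which was 0.063 with quantile normalization and between 0.071 (without Control 981/982) and 0.22 (without Control 976/978) when 1 library was left out. For every one of the 9 the 95% interval of the difference lay between a halving and a doubling, with the lowest bound at -0.58 (Atf6) and the highest at 0.85 (Herpud1). The adjusted p ran from 0.252 to 0.974 (limma without a variance trend, two-sided, Benjamini-Hochberg over all 14194 genes), beside 1.16% of all genes called at the threshold of 0.05. Pdia4 alone had an unadjusted p under 0.05, 1 of 9, against 19.5% of all genes. ONC was higher than the fellow eye in all 4 pools for 4 of the 9 (Hspa5, Pdia4, Herpud1 and Dnajb9), against 17.9% of all genes. None of the 9 had groups that did not overlap, a state found in 7.83% of all genes. A limma fit with the variance trend called 0 of the 9 (0.352% of all genes). With the animal pool as a replicate block it was again 0 of 9 (0.909% of all genes), with 0 of 9 at an unadjusted p under 0.05 (24.7% of all genes).

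**Figure D2:**
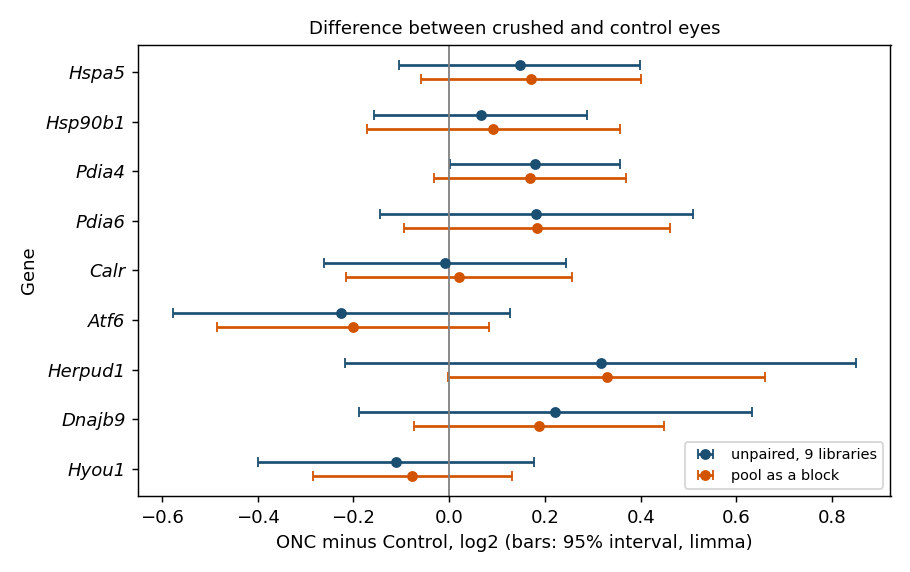
Difference between ONC and Control (log2, x axis) for each of the 9 genes, with the 95% interval of limma, for the unpaired fit of 9 libraries (blue) and the fit with the animal pool as a block (orange). The blue interval of Pdia4, from 0.0018 to 0.36, is the only one of the 18 that does not hold 0.

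Hspa5 encodes BiP, the HSP70 of the endoplasmic reticulum that also holds the 3 sensors inactive, and lies on chromosome 2 from 34772090 to 34776529 (plus strand, mm10, as do all positions of genes here). It read 0 in Control 914/92, 0.018 in 938/88, 0.24 in 976/978 and -0.22 in 981/982. The ONC libraries read 0.061 in 913/986, 0.16 in 914/92, 0.058 in 938/88, 0.35 in 976/978 and 0.16 in 981/982. The groups overlapped, with Control 976/978 above 4 of the 5 ONC libraries, while each ONC eye lay above the control eye of its own pool. The difference was 0.15 ± 0.11 (SE), a 1.11-fold ratio with a 95% interval of 0.93 to 1.32 (adjusted p = 0.466, limma). It was 0.071 without Control 981/982, 0.098 without ONC 976/978 and 0.22 without Control 976/978.

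Hsp90b1 (chromosome 10, 86690841 to 86705444) encodes GRP94, the HSP90 of the same compartment. Control libraries read -0.12 (914/92), 0.089 (938/88), 0.23 (976/978) and -0.038 (981/982). ONC libraries read 0.0039 (913/986), 0.23 (914/92), 0.014 (938/88), 0.18 (976/978) and 0.10 (981/982). Every ONC value lay within the range of the controls or just above its top, and ONC was higher in 2 of the 4 pools with both eyes. The difference was 0.066 ± 0.099 (SE; adjusted p = 0.714, limma), and its sign turned with quantile normalization (-0.028) and without both eyes of pool 914/92 (-0.017). Leaving out 1 library gave 0.014 (Control 914/92) to 0.13 (Control 976/978).

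Calr (chromosome 8, 84842088 to 84846931) encodes calreticulin, a calcium-binding lectin that folds glycoproteins. It read -0.12, 0.20, 0.32 and 0 in Control 914/92, 938/88, 976/978 and 981/982. In ONC it read -0.024 (913/986), -0.0059 (914/92), 0.087 (938/88), 0.21 (976/978) and 0.19 (981/982). All 5 ONC values fell inside the control range. Its difference of -0.0082 ± 0.11 (SE) was the closest to 0 of the 9 (0.99-fold, 95% interval 0.83 to 1.18, adjusted p = 0.974, limma). The sign was positive with the pool as a block (0.020) and when Control 938/88, Control 976/978, ONC 913/986 or ONC 914/92 was left out (0.016 to 0.066).

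Hyou1 (chromosome 9, 44379490 to 44392369) encodes ORP150 (GRP170), which exchanges the nucleotide on BiP. It read -0.18, 0.17, 0.27 and 0 in the controls and -0.19, -0.28, 0.042, 0.12 and 0.079 in ONC, with pools in the order above. Both eyes of pool 914/92 and the ONC eye of 913/986 were the 3 lowest libraries. ONC was lower in 3 of 4 pools and higher in pool 981/982 (0.079), and the groups overlapped. The difference was -0.11 ± 0.13 (SE; 95% interval -0.40 to 0.18; adjusted p = 0.627, limma). With 1 library left out it ran from -0.19 without Control 914/92 to -0.045 without Control 976/978.

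The protein disulphide isomerases Pdia4 and Pdia6 form and reshuffle disulphide bonds in folding proteins. Pdia4 (chromosome 6, 47796141 to 47813512) read 0.049, 0, 0.17 and -0.050 in Control 914/92, 938/88, 976/978 and 981/982. Its ONC values were 0.26 (913/986), 0.24 (914/92), 0.13 (938/88), 0.24 (976/978) and 0.23 (981/982). Control 976/978 lay above ONC 938/88, and each of the other ONC libraries lay above every control. The mean was 0.042 ± 0.094 (SD, n = 4) in Control and 0.22 ± 0.050 (SD, n = 5) in ONC, a 1.13-fold ratio (95% interval 1.00 to 1.28). ONC was higher in 4 of 4 pools. Its p was 0.0481 before and 0.252 after adjustment over all genes by limma, and 0.0238 by an exact permutation test of the 126 assignments of libraries to groups, whose smallest possible p is 0.00794. That test does not pair the eyes, and the fit with the pool as a block gave 0.17, with a 95% interval of -0.031 to 0.37 that holds 0 (adjusted p = 0.256, limma). Its residual spread of 0.072 was lower than in all but 2.27% of genes.

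Pdia6 (chromosome 12, 17266595 to 17284770), whose product also acts on IRE1 and PERK, had a similar difference over a wider spread. It read -0.072, 0, 0.24 and -0.32 in the controls and 0.14, 0.37, -0.056, 0.34 and -0.069 in ONC. ONC 914/92 and ONC 976/978 were its highest libraries and Control 981/982 its lowest, and the groups overlapped. The difference was 0.18 ± 0.14 (SE; 95% interval -0.14 to 0.51; adjusted p = 0.487, limma), with ONC higher in 3 of 4 pools. It was 0.089 without Control 981/982 and 0.27 without Control 976/978.

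Herpud1 (chromosome 8, 94386500 to 94395358), which recruits the machinery of ER-associated degradation and is known to answer to both ATF6 and ATF4, had the largest difference of the 9. It read 0.57, 0.28, 0 and -0.28 in Control 914/92, 938/88, 976/978 and 981/982. The ONC values were 0.41 (913/986), 1.12 (914/92), 0.41 (938/88), 0.052 (976/978) and 0.30 (981/982). ONC 914/92 stood alone above 1, Control 914/92 was the second highest of all 9 libraries, and ONC 976/978 lay below 2 controls. The difference was 0.32 ± 0.24 (SE), a 1.25-fold ratio with an interval of 0.86 to 1.80 (adjusted p = 0.462, limma). Within the pools it was 0.55 (914/92), 0.13 (938/88), 0.052 (976/978) and 0.59 (981/982), higher in all 4. The fit with the pool as a block gave 0.33 ± 0.13 (SE), with an interval of -0.0019 to 0.66 and an adjusted p = 0.205. Leaving out 1 library at a time moved the unpaired difference between 0.15 (ONC 914/92) and 0.46 (Control 914/92), with 0.17 without Control 981/982.

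Dnajb9 (chromosome 12, 44205897 to 44210068) encodes ERdj4, a J-protein that hands clients and IRE1 to BiP and is a known target of XBP1. It read 0.27, -0.072, 0 and -0.22 in the controls and 0.35, 0.74, -0.0070, 0.097 and -0.10 in ONC. As with Herpud1, ONC 914/92 was highest, Control 914/92 the highest control and Control 981/982 the lowest library. The difference was 0.22 ± 0.18 (SE; 95% interval -0.19 to 0.63; adjusted p = 0.497, limma), and 0.091 without ONC 914/92. ONC was higher in 4 of 4 pools, by 0.47 in pool 914/92 and by 0.065 to 0.12 in the other 3.

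Atf6 (chromosome 1, 170704457 to 170867771), the sensor itself, had the lowest difference of the 9. It read -0.29, 0, 0.14 and 0.067 in the controls and -0.34, -0.58, -0.20, -0.28 and 0.17 in ONC. ONC 981/982 was the highest of all 9 libraries and the other 4 ONC libraries were below 3 of the 4 controls. The difference was -0.23 ± 0.16 (SE), a ratio of 0.86 with an interval of 0.67 to 1.09 (adjusted p = 0.431, limma), and ONC was lower in 3 of 4 pools. It was -0.14 without ONC 914/92. The level of Atf6 RNA does not measure the cutting of its protein.

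**Figure D3:**
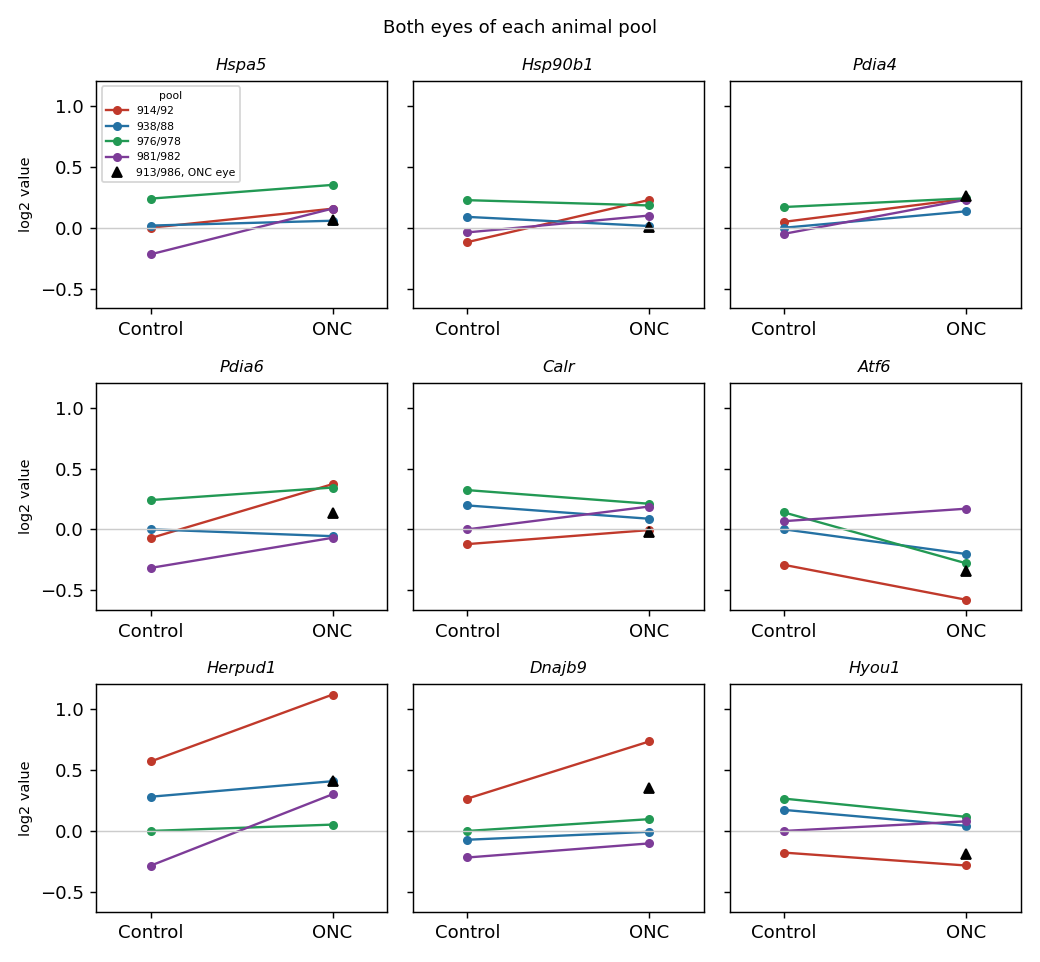
Log2 value (y axis) of each of the 9 genes in the Control and the ONC eye of the 4 animal pools (lines, coloured by pool), with the ONC library of pool 913/986 as a black triangle. Lines for Hspa5, Pdia4, Herpud1 and Dnajb9 go up in all 4 pools. The line of pool 914/92 (red) is uppermost for Herpud1 and Dnajb9 and lowest for Calr, Atf6 and Hyou1.

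ONC 914/92 was the highest of the 9 libraries for Hsp90b1, Pdia6, Herpud1 and Dnajb9 and the lowest for Atf6 and Hyou1. Among the controls, 976/978 was highest for 7 of the 9 genes and 914/92 for the other 2, Herpud1 and Dnajb9. Control 981/982 was the lowest library of all for Hspa5, Pdia4, Pdia6, Herpud1 and Dnajb9. The median residual spread of the 9 genes was 0.19 on the log2 scale, against 0.24 over all genes. Over the 9 libraries, the median of the 9 genes went from -0.072 (Control 914/92) to 0.23 (ONC 914/92 and Control 976/978).

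Markers of the tagged cells and of other cells also differed between these libraries. The median over the 16 Müller glia markers was -0.47 in Control 981/982 and 0.50 in ONC 914/92, where that of the 9 genes was -0.050 and 0.23. In Control 914/92 and Control 976/978 the marker median was 0.23 and 0.024, where that of the 9 genes was -0.072 and 0.23. The marker median was 0 in Control 938/88 and between -0.19 and 0.27 in the remaining ONC libraries. Of the 16, 0 passed the test over all genes and 4 had an unadjusted p under 0.05, beside 1.16% and 19.5% of all genes. These shares also stand beside the counts of the other marker lists below. The fit with the pool as a block called Vim and Crym higher (adjusted p = 0.0373 and 0.0428, limma), beside 0.909% of all genes. Gfap, the intermediate filament gene of reactive glia, differed by 1.80 ± 0.56 (SE; adjusted p = 0.148, limma), and by 2.35 without Control 914/92 (0.0412), where it read 1.92. Without both eyes of that pool it did not pass (0.0679), nor without any other single library (0.0900 to 0.358). Microglia and macrophage markers had medians of -0.19 to 0.0074 in the controls and 0.28 to 2.99 in ONC, ONC 914/92 being the lowest of the ONC libraries. Of these 15 only Cd68 was called, and not with the pool as a block (adjusted p = 0.0530) or quantile normalization (0.153, limma). Cd68 and 3 others of the 15 had passed the deposited filter on raw values in 1 condition only, and no fold is given for them. The medians of the microglia and macrophage list include these 4, whose presence may itself depend on a high value in 1 group. No conclusion is therefore drawn from these medians or from the call of Cd68. Of 5 measured markers of other leukocytes 3 were called (Cd52, S100a8 and S100a9), all higher. With the pool as a block S100a9 alone was called (adjusted p = 0.0317, limma), and with the variance trend 0 of the 3 (0.0526 to 0.0643). The deposited filter was passed in 1 condition only by 3 of the 5, Cd52 and S100a8 among them. No median is therefore given for this list, and no conclusion is drawn from the calls of Cd52 and S100a8. Plasma cells, which are rich in these chaperones, had 4 measured markers, of which 0 were called, with medians of -0.51 to 0.19 in Control and -0.83 to 0.24 in ONC. Of 14 ganglion cell markers 6 were called, all lower, with list medians of -0.24 to 0.12 in Control and -0.99 to -0.62 in ONC. Higher in ONC were 2 of the 14, Gap43 (1.05) and Slc17a6 (0.21). With the pool as a block 6 were called, Gap43 among them and higher (adjusted p = 0.0332, limma). Nefl and Pou4f1 did not pass that fit (0.0564 and 0.0546). With the variance trend only Sncg and Rbpms2 of the first 6 passed (0.0469 and 0.0497). Markers of photoreceptors, bipolar and amacrine cells, astrocytes, vessels and pigment epithelium had 0 called genes, with median differences of -0.38, -0.34, 0.16, -0.30 and -0.088 and 1, 1, 2, 0 and 0 genes at an unadjusted p under 0.05. Aldh1l1 and Aqp4 stand in both the Müller glia and the astrocyte list. Aldh1l1, the driver gene, differed by 0.68 ± 0.23 (SE; adjusted p = 0.165, and 0.0530 with the pool as a block, limma). The part of any of these cell types in the values of the chaperone genes, or of the lists below, was not tested.

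**Figure D4:**
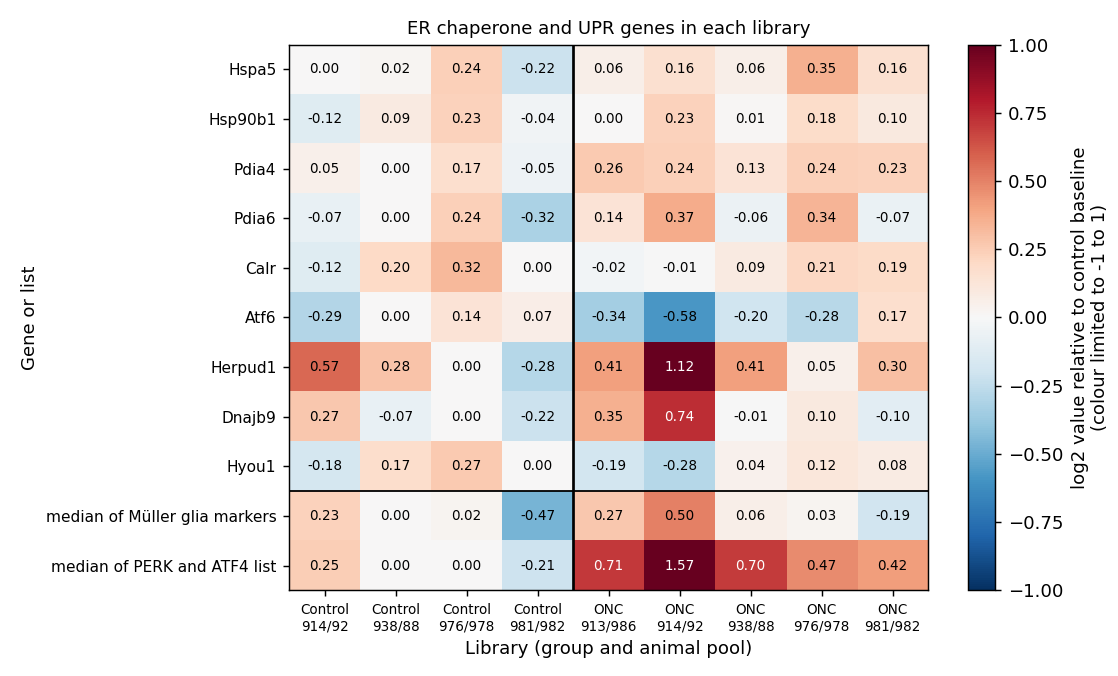
Log2 values relative to the control baseline of the 9 genes, and below them the medians of the Müller glia markers and of the PERK and ATF4 list, in the 4 Control and 5 ONC libraries. The dark cells of ONC 914/92 are Herpud1 (1.12), Dnajb9 (0.74) and the PERK and ATF4 median (1.57), while the chaperone rows stay pale on both sides of the line between the groups.

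In the wider machinery of the compartment 0 genes passed the test in each of 4 further lists, with or without the pool as a block. At an unadjusted p under 0.05 they held 5 of 23 chaperones and foldases, 4 of 11 sensors and relatives, 4 of 22 degradation genes and 2 of 16 translocon and signal peptidase genes, beside the 19.5% of all genes. Of 23 other chaperones and foldases, 18 were higher in ONC and 5 lower, with a median of 0.12, beside 49.9% of all genes higher and a median over all genes of -6.2e-04. Manf, a chaperone that is secreted under ER stress and protects neurons, had the smallest p of these. Its controls lay between -0.035 and 0.055 and its ONC libraries between 0.090 and 0.64, without overlap, a difference of 0.36 ± 0.12 (SE; 1.28-fold; adjusted p = 0.164, limma). Uggt1, which sends misfolded glycoproteins back to calreticulin, and Ppib, a proline isomerase, differed by -0.34 and 0.31 (adjusted p = 0.181 and 0.191, limma).

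Sensors and their relatives gave 0 calls of 11, with a median of 0.044. It was 0.0084 with quantile normalization, 0.019 without Control 914/92 and 0.098 without Control 976/978. The sensor genes Ern1 (IRE1) and Eif2ak3 (PERK) differed by -0.14 and -0.090 (adjusted p = 0.655 and 0.625, limma). The relatives with the smallest p were Creb3l2 (-0.56), Creb3 (0.25) and Rtcb, the ligase of Xbp1 splicing (0.27, listed as D10Wsu52e), with adjusted p of 0.145, 0.169 and 0.202 (limma). The largest difference of the 4 lists, named after its value was seen, was that of Creb3l1, a relative of ATF6 (0.71 ± 0.30 SE; adjusted p = 0.237, limma). Degradation genes gave 0 of 22 and a median of 0.076 (0.036 with quantile normalization and 0.025 without Control 981/982). The smallest p were those of the ubiquitin-conjugating enzyme Ube2g2 (0.30), the mannosidase-like Edem3 (-0.24) and Fam8a1, a partner of the ligase Hrd1 (-0.30, listed as C78339). Their adjusted p were 0.150, 0.227 and 0.241 (limma). The translocon and signal peptidase list, which brings new chains into the compartment, gave 0 of 16 and a median of 0.20, with 14 of 16 higher. Spcs3, a signal peptidase subunit, differed by 0.43 ± 0.10 (SE; adjusted p = 0.0889, limma), its ONC libraries (0.16 to 0.62) all above its controls (-0.14 to 0.016). Sec11a, the catalytic subunit, and Sec61b, a channel subunit, differed by 0.37 and 0.41 (adjusted p = 0.183 and 0.260, limma).

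Sorted by the factor known to act on them, 12 ATF6 targets (6 of them among the 9) had a median of 0.16 and 12 XBP1 targets (2 of them among the 9) one of 0.20, with 0 called in either list and 4 and 0 at an unadjusted p under 0.05, beside 1.16% and 19.5% of all genes. With quantile normalization the medians were 0.084 for the ATF6 targets and 0.13 for the XBP1 targets. Of genes outside the 9, Creld2 had the next smallest p of the ATF6 targets after Manf, at 0.23 (adjusted p = 0.216, limma), and Sdf2l1, a stress-induced partner of BiP, differed by 0.47 (adjusted p = 0.256, limma). The XBP1 targets Dnajb11 and Ssr3 differed by 0.19 and 0.20 (adjusted p = 0.296 and 0.301, limma). Dnajb11 and Dnajc3 stand in both target lists, so the list medians are not separate readouts of the factors. By sequence, 21 measured genes had an ERSE in a promoter window, 4 of them members. Their median difference was -0.0082, 10 of the 21 were higher in ONC, 0 were called and 1 had an unadjusted p under 0.05. Of 7 genes with an ERSE-II, 1 of them the member Herpud1, 6 were higher, with a median of 0.14, and 0 were called, also with no unadjusted p under 0.05. Of 114 genes with a UPRE 52 were higher, with a median of -0.032, and 1 was called and 25 had an unadjusted p under 0.05. These counts of higher genes stand beside 49.9% of all genes.

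The list of the PERK and ATF4 branch gave larger differences. Of 17 measured genes 3 were called, all higher in ONC, and 11 had an unadjusted p under 0.05, beside 1.16% and 19.5% of all genes, with a list median of 0.80 (0.41 without ONC 914/92). Ddit3, the factor CHOP, lay between -0.34 and 0.12 in Control and between 0.72 and 1.57 in ONC, with no overlap (difference 1.06 ± 0.18 SE; adjusted p = 0.0331, limma). Chac1, which degrades glutathione, differed by 3.42 ± 0.59 (SE; adjusted p = 0.0332, limma). Its controls were widely spread, from -1.73 to 1.64, and its ONC libraries lay between 2.93 and 4.27. Atf3, a stress-induced factor, differed by 2.39 ± 0.32 (SE; adjusted p = 0.0104, limma). Its controls lay between -0.045 and 1.21 and its ONC libraries between 2.59 and 3.50. Hspa5 over the same libraries differed by 0.15. The difference between the lists was not tested, nor whether PERK acted on the 17 genes or which cells their RNA came from. ONC 914/92, highest in Herpud1 and Dnajb9, was also highest in Ddit3 (1.57), Chac1 (4.27) and Atf3 (3.50). All 3 calls ended with the variance trend (adjusted p = 0.0526, 0.0643 and 0.0626) and with quantile normalization (0.0833, 0.219 and 0.377), and that of Chac1 also with the pool as a block (0.0520). That fit called 5 of the 17, beside 0.909% of all genes: Atf3 and Ddit3 again, and Cebpb, Nupr1 and Trib3, all higher. Ddit3 did not pass when Control 938/88, Control 976/978, Control 981/982 or ONC 913/986 was left out (0.0900 to 0.118). Chac1 did not pass without any of these or without ONC 914/92, ONC 938/88 or ONC 976/978 (0.0504 to 0.111). Atf3 passed in each fit with 1 library left out. With the block and a trend none of the 3 passed (0.0801 to 0.0878, limma).

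**Figure D5:**
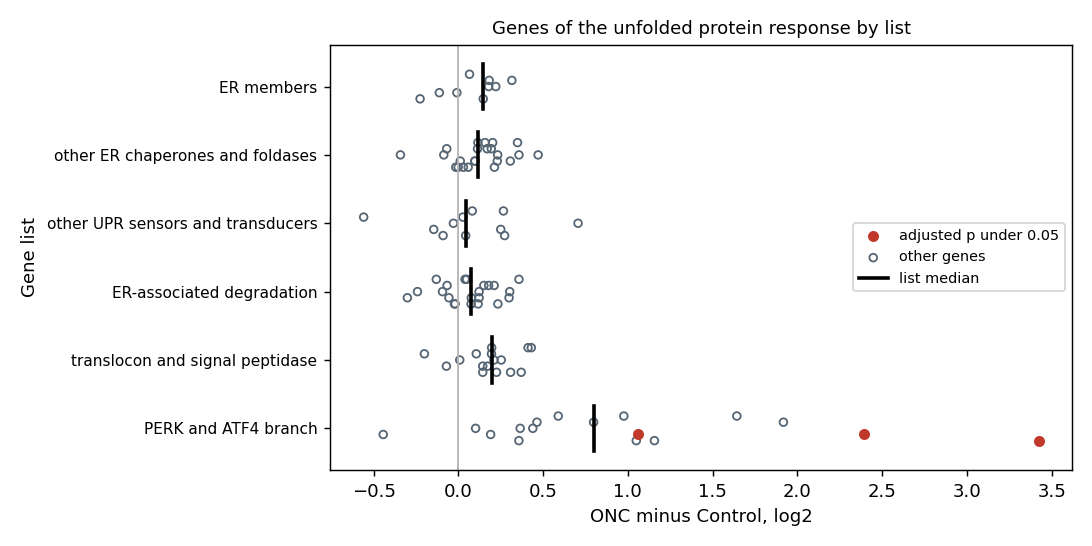
Difference between ONC and Control (log2, x axis) of every measured gene in the ER member list and 5 further lists (circles, filled red where the adjusted p was under 0.05), with the list median as a black bar. The first 5 lists centre between 0.044 and 0.20, and the PERK and ATF4 branch at 0.80 with its 3 called genes at 1.06, 2.39 and 3.42.

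Genes whose pattern was most like that of the 9 were sought by Pearson's r over the 9 libraries, as a description. With the median of the 9 genes the most alike were AA414768 (0.92), Slc9a8 (0.89), Cdca4 (0.87) and Gpank1 (0.86), none of these 4 called. Hspa5 alone was most like Nsun7 (0.90), Gm19522 (0.89), Toe1 (0.88), Ube2e3 (0.88) and Ftsj2 (0.88). Within the 9, Pdia6 (0.84), Pdia4 (0.78), Hsp90b1 (0.75) and Calr (0.59) followed Hspa5, while Dnajb9 (0.27), Hyou1 (0.27), Herpud1 (0.19) and Atf6 (-0.17) did so little. The 9 points share the 2 groups and 4 of the 5 animal pools.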

How the data were processed

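Ribosome-bound RNA of 9 libraries (5 ONC, 4 Control) was analysed; the fellow eyes of pool 913/986 are not analysed here. The deposited values are log2, normalized by the authors per the file headers, which name RefSeq gene models and a filter on raw values (5 to 298892.188, met by 100% of libraries in 1 or both of 2 conditions). That they are log2 and relative to a control baseline was read from the values. All 9 members passed that filter in both conditions. The submitters' processing notes name mm10 and DESeq. Aligner and counter: not given in the sources used here.

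Groups came from the treatment label. Each of the 14194 genes was fitted with limma 3.58.1 (R 4.3.3), ONC against Control, with 7 residual degrees of freedom and p-values adjusted by Benjamini-Hochberg. The variance trend was left as an alternative, since the mean it follows is set by the centring on the controls and holds no level. The replicates are pools of animals. Fellow eyes share animals, so the pool pairs them, and deviations of same-pool libraries correlated between -0.064 and 0.45 across genes (-0.49 to 0.41 for other pools). The unpaired fit was also run on simulated independent normal values. These had no pairing of eyes and held changes larger than any difference of the members. That run cannot check the pairing or the power for small differences. Exact permutation tests are two-sided.

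All 9 measured members are named, with the genes past the threshold and the 3 of smallest p in each pathway list, the 5 genes most alike (1 is not reported here), and Gfap. Sdf2l1, Ern1, Eif2ak3, Creb3l1, Cebpb, Nupr1, Trib3, Gap43, Slc17a6 and the value of Aldh1l1 were added after their values were seen. Dnajc3 and Aqp4 are named for standing in more than 1 list. Promoter windows are RefSeq's, searched with Python 3.11.15. The members, lists, tests and alternatives were chosen with earlier results of these data known.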

Additional observations from a re-analysis of the deposited data

Results flagged for a closer look

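Of 18 groups of values (9 genes in Control and in ONC), 1 held a library that stood apart by Dixon's criterion, which chance alone gives in about 1 group of 20. Pdia4 in ONC 938/88 read 0.135, while the other 4 ONC libraries lay between 0.230 and 0.262, so that the gap was 0.751 of the group's range.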

How the results depend on the processing

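No fit called any of the 9 genes, in 16 refits: with a variance trend, the replicate block, the block with a trend, quantile normalization, library medians set to 0, genes passing the filter in both conditions, each of 9 libraries left out, and both eyes of pool 914/92 left out. Of 153 values of the 9 genes under these refits and the exact test, 144 kept direction and side of the threshold. The exact p of Pdia4 (0.0238, not adjusted) passed. Calr turned positive with the replicate block (0.020, also with a trend) and lay between -0.082 and 0.066 when 1 library was left out (0.024 without Control 938/88, 0.016 without ONC 914/92). Hsp90b1 turned negative with quantile normalization (-0.028) and without pool 914/92 (-0.017). The causes were not tested. Over all genes, 165 were called, against 129 with the replicate block, 50 with a trend, 30 with quantile normalization, 102 under the filter, and 0 with the block and a trend (3574 at an unadjusted p under 0.05). Leaving out 1 library gave 62 to 234 (71 without Control 938/88, 62 without Control 976/978, 90 without Control 981/982, 64 without ONC 913/986, 92 without ONC 976/978). Depth is unknown, and 9 libraries leave differences of the sizes inside the intervals undecided.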
